A study of Mus musculus with 6 samples.

Results

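The deposited table holds 24054 gene rows, and 8 of them are the genes Ager, Hopx, Aqp5, Rtkn2, Clic5, Akap5, Emp2 and Cav1, taken by symbol as markers of the alveolar type 1 cell. All 8 were found, and all 8 passed the filter on low values. The lungs came from 6 female SCID mice, a strain that lacks working T and B cells. All 6 mice were given labelled extracellular vesicles (EVs) carrying CD9, CD63 and CD81 by tail vein, and rat ELT3 cells intravenously 48 h later, and the lungs were collected 72 h after that. ELT3 is a rat cell line used to model lymphangioleiomyomatosis, a lung disease in which smooth-muscle-like cells spread into the lung. In 3 mice the EVs came from wild-type neural progenitors of E15.5 mouse embryos (WT EV), and in the other 3 from progenitors of the same stage that lacked Tsc1 (Tsc1-null EV), which encodes a brake on the growth kinase mTORC1. The genotype given for each sample (WT or MT) is read as that of the vesicle donor cells, which is what separates the groups. The study looked at how vesicles of either origin change the lung before and during seeding by ELT3 cells. Every lung analysed here had received both EVs and ELT3 cells.

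Alveolar type 1 cells are flat, very thin epithelial cells that cover most of the gas-exchange surface of the lung. Oxygen and carbon dioxide pass through them and through the capillary wall beneath, with which they share a basement membrane. In the adult lung they can arise from type 2 cells, the cuboidal cells that make surfactant. The factor NKX2-1 and the YAP/TAZ-TEAD pathway maintain the identity of type 1 cells. Of the 8 genes, Ager is the most selective for type 1 cells in lung. Hopx, Aqp5, Rtkn2, Clic5 and Akap5 are also used as type 1 markers. Emp2 and Cav1 are high in type 1 cells and are expressed in capillary endothelium as well. In whole lung, fewer cells of a type and less RNA per cell cannot be told apart.

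The libraries held 5101413 to 9358820 reads assigned to genes, and the 8 genes held 774 to 31393 reads each in every library, so counting error was small beside the spread between mice. Values are TMM-normalized CPM, that is, reads scaled by library size and by a factor that aligns the libraries. One library of each group differed from the remaining 4 and is said here to stand apart: replicate 2 of WT EV, with a median correlation to the other libraries of 0.963, and replicate 1 of Tsc1-null EV, with 0.942, where the rest had at least 0.980. Malat1, a nuclear noncoding RNA, was at 15673 and 30060 there, compared with 1609 to 2819 elsewhere, and Rn45s, the ribosomal RNA precursor, at 10881 and 13776, compared with 3293 to 6120. Lung epithelial genes were high in every library, with the surfactant gene Sftpc at 13094 to 29628 and Ager at 1671 to 3873. The labels give the samples separate numbers and do not say more on how the mice were housed or processed, so p-values measure the spread between these 6 samples.

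None of the 8 alveolar type 1 genes passed the test of Tsc1-null EV against WT EV. Of the 8, 7 had a log2 fold below 0, with a median of -0.23, against a median of -0.015 over all genes tested, of which 52.7% were below 0 (55.9% of those with a mean of at least 100). Cav1 had the lowest log2 fold at -0.31 and Aqp5 was the single gene above 0, at 0.039. Limma called 0 of the 8 at an adjusted p under 0.05, where it called 0 of 14159 genes (0%), and 0 of the 8 at an unadjusted p under 0.05, where it had 6.57% of all genes. edgeR and DESeq2 also gave 0 of the 8 an unadjusted p under 0.05, where they had 6.93% and 6.13% of all genes. The lowest unadjusted p among the 8 was 0.192 by limma, 0.215 by edgeR and 0.227 by DESeq2. In 0 of the 8 did the groups separate, while 13.1% of all genes did not overlap between the groups. Without the 2 libraries that stood apart the same count, 7 of 8, lay below 0 with a median of -0.24, where 50.5% of all genes lay below 0.

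**Figure D1:**
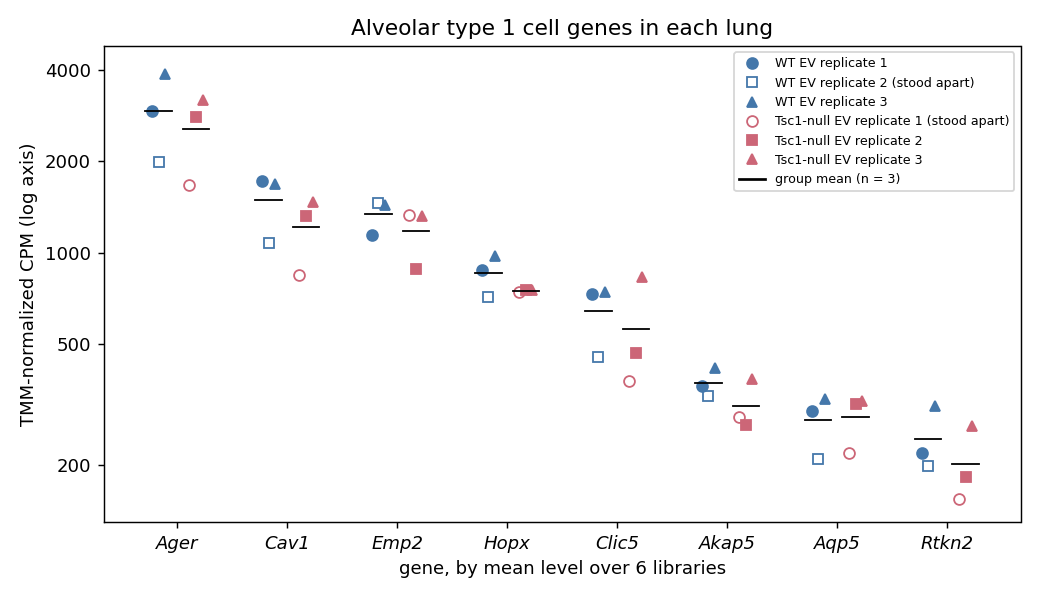
Each point is 1 lung, with TMM-normalized CPM on a log axis and the 8 alveolar type 1 genes ordered by mean level; bars are group means of 3 mice, and open symbols are the 2 libraries that stood apart. The groups overlap for every gene, and the open symbols are the lowest pair for Ager, Cav1, Clic5, Aqp5 and Hopx.

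Ager encodes RAGE, a multiligand receptor on the basal membrane of type 1 cells that also helps them adhere and spread. Ager stood at 2940, 1989 and 3873 in WT EV replicates 1 to 3 and at 1671, 2803 and 3186 in Tsc1-null EV replicates 1 to 3. The lowest value of each group came from the library of that group that stood apart, and the remaining lungs of the groups interleaved. The means were 2934 ± 942 and 2553 ± 788 (SD, n = 3 each), with a log2 fold of -0.20 ± 0.34 (SE) and a limma adjusted p of 0.936. The 95% interval ran from -0.98 to 0.58, which spans folds from 0.506 to 1.496. The direction of Ager rested on single libraries: it was 0.079 when Tsc1-null EV replicate 1 was left out, 0.026 when WT EV replicate 3 was, and -0.45 when WT EV replicate 2 was.

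Hopx encodes a small homeodomain protein that does not bind DNA and acts as a transcriptional cofactor. Hopx stood at 880.8, 717.4 and 979.5 in the WT EV lungs and at 743.1, 752.8 and 757.9 in the Tsc1-null EV lungs. The 3 Tsc1-null EV lungs lay close together and above WT EV replicate 2, which alone made the groups overlap. The means were 859.2 ± 132.4 and 751.3 ± 7.52, with a log2 fold of -0.18 ± 0.18 (95% interval -0.59 to 0.23, limma adjusted p = 0.853). Leaving out WT EV replicate 2 gave a log2 fold of -0.31, and leaving out WT EV replicate 3 one of -0.081. An antisense gene, Hopxos, overlaps 27.2% of the exonic bases of Hopx, and without a statement on strand its reads cannot be separated from those of Hopx.

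Aqp5 encodes an apical water channel of type 1 cells. Aqp5 stood at 302.9, 209.3 and 331.4 in WT EV and at 219.7, 317.7 and 326.7 in Tsc1-null EV lungs. Each group held 1 low lung, again the library that stood apart, and 2 lungs between 302.9 and 331.4. The log2 fold was 0.039 ± 0.23 (95% interval -0.48 to 0.56, limma adjusted p = 0.981), from -0.16 without WT EV replicate 2 to 0.22 without Tsc1-null EV replicate 1.

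Rtkn2 stood at 219.5, 198.9 and 313.8 in WT EV and at 155.2, 183.6 and 268.8 in Tsc1-null EV lungs. Replicate 3 was the highest lung of both groups, and 2 of the 3 Tsc1-null EV lungs lay below every WT EV lung. The log2 fold was -0.28 ± 0.25 (95% interval -0.84 to 0.28, limma adjusted p = 0.830), from -0.50 without Tsc1-null EV replicate 3 to -0.084 without WT EV replicate 3. Rtkn2 is also expressed in some lymphocytes. The 9 lymphocyte and NK cell genes listed together summed to 19.8 to 36.8 in WT EV and 13.2 to 26.8 in Tsc1-null EV lungs.

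Clic5, a chloride intracellular channel protein that links membranes to cortical actin through ezrin and radixin, stood at 734.1, 454.3 and 742.6 in WT EV and at 380.3, 469.1 and 835.2 in Tsc1-null EV lungs. Tsc1-null EV replicate 3 was the highest of all 6 lungs, and Tsc1-null EV replicate 1 the lowest. The log2 fold was -0.24 ± 0.32 (95% interval -0.97 to 0.48, limma adjusted p = 0.900), -0.0047 without Tsc1-null EV replicate 1 and -0.57 without its replicate 3.

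Akap5 anchors protein kinase A and calcineurin near the plasma membrane. Akap5 stood at 364.6, 338.3 and 417.9 in WT EV and at 288.1, 271.1 and 385.2 in Tsc1-null EV lungs. Tsc1-null EV replicates 1 and 2 lay below all WT EV lungs and replicate 3 lay among them. The means were 373.6 ± 40.5 and 314.8 ± 61.6, with a log2 fold of -0.26 ± 0.18 (95% interval -0.67 to 0.16, limma adjusted p = 0.783), which was the lowest adjusted p of the 8. With weights estimated for each sample, which ran from 0.213 for Tsc1-null EV replicate 1 to 4.19 for WT EV replicate 3, its log2 fold was -0.48 and it passed (limma adjusted p = 0.0442). Under those weights 3.3% of all genes passed on the lower side, and the other 7 type 1 genes did not pass. Their weighted log2 folds were -0.56 for Rtkn2, -0.53 for Emp2, -0.49 for Clic5, -0.33 for Ager, -0.32 for Hopx and Cav1 and -0.0084 for Aqp5, with limma adjusted p-values from 0.0577 for Rtkn2 to 0.9749 for Aqp5.

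Emp2, a tetraspan membrane protein that affects integrin signalling and caveolin levels, stood at 1144, 1456 and 1442 in WT EV and at 1332, 884.2 and 1328 in Tsc1-null EV lungs. Emp2 was the single gene of the 8 with its highest value in WT EV replicate 2, while its one low lung was Tsc1-null EV replicate 2. The log2 fold was -0.21 ± 0.23 (95% interval -0.73 to 0.32, limma adjusted p = 0.876), and it was -0.010 without Tsc1-null EV replicate 2.

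Cav1 encodes caveolin 1, the main coat protein of caveolae, the flask-shaped membrane pits of type 1 cells, endothelium, fat and smooth muscle. Cav1 stood at 1726, 1077 and 1687 in WT EV and at 844.8, 1320 and 1475 in Tsc1-null EV lungs. WT EV replicates 1 and 3 lay above all Tsc1-null EV lungs, and WT EV replicate 2 lay below 2 of them. The means were 1497 ± 364 and 1213 ± 328, with a log2 fold of -0.31 ± 0.28 (95% interval -0.96 to 0.34, limma adjusted p = 0.842), -0.069 with Tsc1-null EV replicate 1 left out and -0.53 with WT EV replicate 2 left out.

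**Figure D2:**
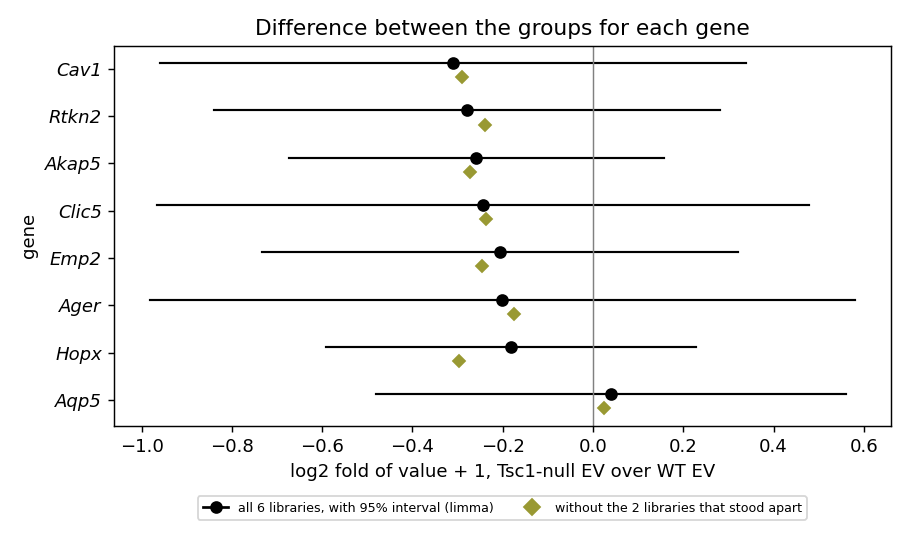
Log2 folds of value + 1 (Tsc1-null EV relative to WT EV) are shown as circles with the 95% interval of limma over all 6 libraries, and diamonds give the value without the 2 libraries that stood apart. Every interval contains 0, and 7 of the 8 genes lie below 0 by both values.

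Across the 6 lungs most of the 8 genes followed a shared profile. WT EV replicate 3 was the highest lung for 5 of the 8, where it was highest for 10.3% of all genes. The 2 libraries that stood apart were the 2 lowest lungs for 5 of the 8 (Ager, Hopx, Aqp5, Clic5 and Cav1), where they were for 14.3% of all genes. Centred on each gene's mean, the mean profile on the log2 scale was 0.14, -0.19 and 0.36 in WT EV and -0.37, -0.15 and 0.21 in Tsc1-null EV lungs, so the spread within each group exceeded the difference between them. Rtkn2 lay nearest to the mean of the other 7, with a root-mean-square difference of 0.132 on the log2 scale, and Emp2 lay farthest, at 0.367. Clic5 varied most, with a standard deviation of 0.47 over the 6 lungs, and Hopx least, with 0.176. How RNA quality or the share of nuclear RNA acts on this profile was not tested.

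**Figure D3:**
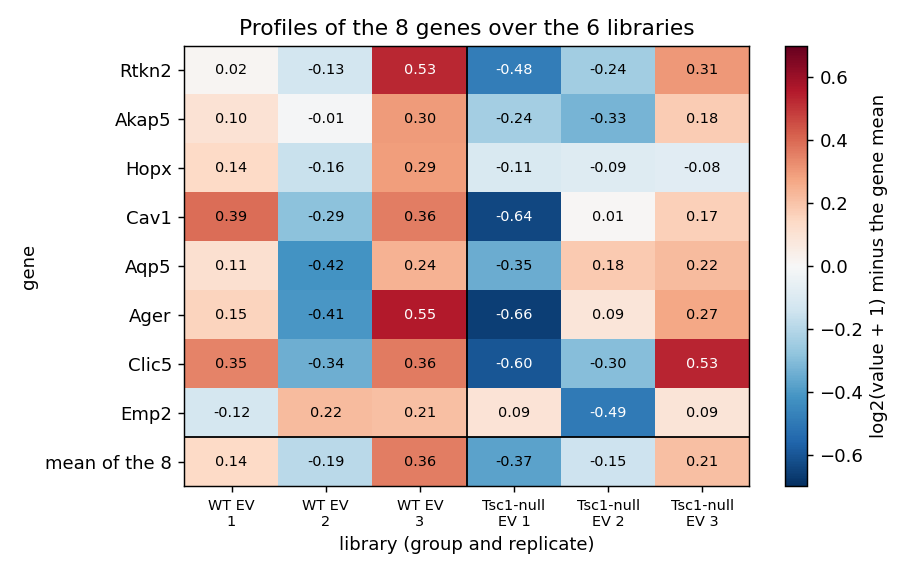
Each cell is log2(value + 1) of a gene in a library minus that gene's mean over the 6 libraries, with genes ordered by their distance from the mean of the other 7 and the mean of the 8 in the last row. In WT EV replicate 2 Ager is at -0.41, with -0.66 in Tsc1-null EV replicate 1, whereas Emp2 is at 0.22 and 0.095 there.

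Among 10126 genes outside the 8 with a mean of at least 10, those with the profile nearest to the mean of the 8 were Tnip1, Faim, Hunk, Elk3 and Zfp703, at root-mean-square differences of 0.0482 to 0.0634 on the log2 scale over 6 lungs. Elk3, an ETS-family factor, stood at 89.7, 77.2 and 105.4 in WT EV and at 62.5, 81.5 and 102 in Tsc1-null EV lungs.

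Levels between genes were compared per kilobase of annotated exon, in CPM per kb over the WT EV lungs. Ager was highest at 2135 ± 686, followed by Hopx at 566.8 ± 87.3, Cav1 at 484.5 ± 118, Emp2 at 391.7 ± 51.3, Aqp5 at 156.5 ± 35.6, Clic5 at 109.8 ± 28.0, Rtkn2 at 61.3 ± 15.4 and Akap5 at 54.8 ± 5.94. Ager lay above Hopx, and Emp2 above Aqp5, in every WT EV lung without overlap. The ranges of Hopx and Cav1, of Cav1 and Emp2, of Aqp5 and Clic5, of Clic5 and Rtkn2 and of Rtkn2 and Akap5 overlapped. Within each WT EV lung, however, Hopx lay above Cav1, Aqp5 above Clic5, Clic5 above Rtkn2 and Rtkn2 above Akap5. Cav1 lay above Emp2 in WT EV replicates 1 and 3 and below it in replicate 2.

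The genes lie on separate chromosomes except for Ager and Clic5, both on chromosome 17. In build GRCm38 (mm10, GENCODE M21) Ager lies at chr17:34597862-34600936 on the plus strand, Clic5 at chr17:44188584-44280172 on the plus strand, Cav1 at chr6:17306335-17341452 on the plus strand and Emp2 at chr16:10281749-10313968 on the minus strand. All 8 are annotated as protein-coding, and values are totals over the exons of each gene. The 250 bases before the RefSeq start site are printed for 4 genes: Ager and Clic5, which were low in both libraries that stood apart, Cav1, with the lowest log2 fold, and Emp2, with the profile farthest from the rest. Sequences are RefSeq GRCm38.p6, 5′ to 3′ on the strand of the gene. Capitals mark matches to the letters of a GC box (GGGCGG, or CCGCCC on the other strand) or a TATA box (TATAAA, or TTTATA on the other strand).
Ager, chr17:34597600-34597849, plus strand: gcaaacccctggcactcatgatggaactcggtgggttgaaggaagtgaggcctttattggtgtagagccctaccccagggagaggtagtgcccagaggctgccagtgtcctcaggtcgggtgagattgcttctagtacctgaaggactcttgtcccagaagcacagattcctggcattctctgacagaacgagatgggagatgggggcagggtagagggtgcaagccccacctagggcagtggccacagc
Clic5, chr17:44188322-44188571, plus strand: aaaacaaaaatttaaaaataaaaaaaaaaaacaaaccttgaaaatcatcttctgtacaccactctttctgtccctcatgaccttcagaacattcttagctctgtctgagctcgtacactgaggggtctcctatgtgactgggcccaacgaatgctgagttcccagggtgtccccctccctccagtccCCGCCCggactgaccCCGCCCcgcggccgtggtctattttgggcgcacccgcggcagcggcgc
Cav1, chr6:17306085-17306334, plus strand: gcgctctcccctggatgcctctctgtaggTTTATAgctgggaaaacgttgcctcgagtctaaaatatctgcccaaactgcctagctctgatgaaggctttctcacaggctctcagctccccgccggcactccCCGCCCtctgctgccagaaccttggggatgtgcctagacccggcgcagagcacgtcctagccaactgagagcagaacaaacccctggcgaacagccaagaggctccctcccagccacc
Emp2, chr16:10313969-10314218, minus strand: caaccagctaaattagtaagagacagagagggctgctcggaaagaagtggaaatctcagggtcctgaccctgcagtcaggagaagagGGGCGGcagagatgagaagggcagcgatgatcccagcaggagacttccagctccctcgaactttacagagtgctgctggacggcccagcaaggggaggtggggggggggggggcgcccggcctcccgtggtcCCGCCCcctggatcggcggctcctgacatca

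RefSeq promoters were matched for 7 of the 8 genes, in 9 windows, and Rtkn2 was not matched. A GC box stood in 5 of the 9 windows (Akap5, Aqp5, Cav1, Clic5 and Emp2), and in 32.7% of all 32851 windows of the same length. Clic5 holds 2, at 63 and 48 bases before the start site, Emp2 holds 2, at 163 and 31 bases, and Cav1 holds 1, at 118 bases. The TEAD core GGAATG (or CATTCC) stood in 0 of the 9 windows and in 12.6% of all windows. The NKX2-1 motif CACTNNAG (or CTNNAGTG) stood in 1, that of Akap5, against 12.9% of all, and TATAAA (or TTTATA) in 1, that of Cav1, against 12.4%. The Cav1 match is TTTATA, on the other strand, at 221 bases before the start site. None of these 4 motifs is found in the Ager window. The letters of the motifs searched do not overlap in these windows, and a match or its absence is a description of the window only.

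Other type 1 genes outside the 8 were split in direction. Of 20 such genes 13 had a log2 fold below 0 and 7 above, with a median of -0.064. Limma called 0 of them, with 1 at an unadjusted p under 0.05 (6.57% of all genes). Vegfa, through which type 1 cells signal to capillaries, stood at 445.3, 654.9 and 519.0 in WT EV and at 420.6, 324.9 and 427.3 in Tsc1-null EV lungs. It was the single gene of the 20 whose groups did not overlap (log2 fold -0.46 ± 0.20, limma adjusted p = 0.721), where 13.1% of all genes did not. Cav2, the partner of Cav1 in the caveolar coat, stood at 372.1 ± 88.3 and 274.1 ± 25.2. Itgb6, the integrin subunit that activates TGF-beta, lay on the other side at 42.7 ± 10.1 and 56.6 ± 9.78, and Cldn18, the lung tight junction claudin with the highest level of the list, stood at 817.8 ± 122.3 and 790.0 ± 175.0.

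Marker genes of type 2 cells, the surfactant genes among them, lay mostly on the opposite side from the 8 type 1 genes. Of 12 type 2 genes 11 lay above 0 (median log2 fold 0.44), and 4 did not overlap between the groups (Chil1, Abca3, Cxcl15 and Sftpd). Limma called 0 of them, with 3 at an unadjusted p under 0.05. Of all genes 6.86% were higher without overlap and 6.57% had an unadjusted p under 0.05. Without the 2 libraries that stood apart the median of the type 2 genes was 0.54. Sftpc, the type 2 gene with the highest level, overlapped between the groups, at 22064, 17290 and 17645 in WT EV and 13094, 29628 and 22698 in Tsc1-null EV lungs (log2 fold 0.13 ± 0.48, limma adjusted p = 0.974). Abca3, which loads lipid into lamellar bodies, stood at 195.8, 183.9 and 156.3 in WT EV and at 217.1, 335.9 and 293.1 in Tsc1-null EV lungs (log2 fold 0.64 ± 0.19, limma adjusted p = 0.721). Ager over Sftpc within a lung was 0.133, 0.115 and 0.22 in WT EV and 0.128, 0.0946 and 0.14 in Tsc1-null EV lungs, with the groups interleaved. Ager over Abca3, whose type 2 gene is one of those with the smallest p, was 15.0, 10.8 and 24.8 in WT EV and 7.7, 8.35 and 10.9 in Tsc1-null EV lungs, with 1 WT EV lung inside the range of the other group. The mean log2 level of the 8 type 1 genes minus that of the 12 type 2 genes, each set to 0 at its WT EV mean, was -0.22, -0.14 and 0.35 in WT EV and -0.48, -1.08 and -0.31 in Tsc1-null EV lungs. All 3 Tsc1-null EV lungs lay below all WT EV lungs on this difference. This was not particular to type 2 genes. The difference from the ciliated cell genes was -0.0748, -0.0575 and 0.132 in WT EV and -1.74, -0.584 and -0.109 in Tsc1-null EV lungs. The difference from the genes of aerocytes, a capillary cell type, separated the groups in the other direction. Against the remaining lists the groups overlapped. No test is given because the lists were chosen with results of these data known. 

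**Figure D4:**
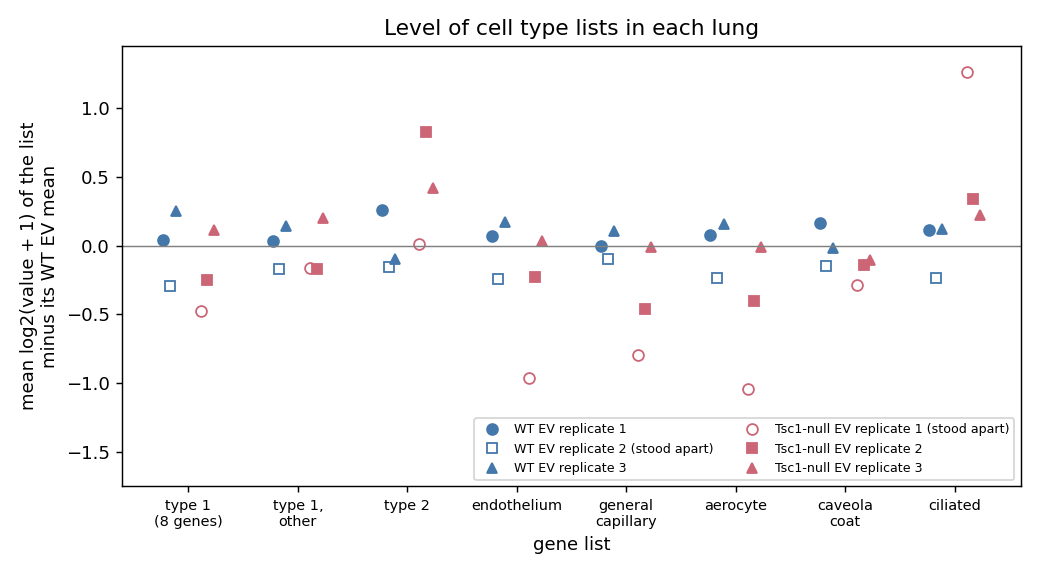
Each point is 1 lung, plotted as the mean log2(value + 1) of a gene list minus the WT EV mean of that list, with open symbols for the 2 libraries that stood apart. The type 1 genes range from -0.29 to 0.25 in WT EV and from -0.48 to 0.11 in Tsc1-null EV lungs, and the type 2 genes reach 0.83 in Tsc1-null EV replicate 2.

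Genes of the transitional state that type 2 cells pass through on the way to type 1 cells were split, with 4 of 10 below 0 and a median of 0.074. Krt8, an epithelial keratin, stood at 230.7, 186.7 and 243.8 in WT EV and at 247.0, 313.0 and 266.5 in Tsc1-null EV lungs, and Cdkn1a, a cell cycle inhibitor, at 121.6 ± 7.05 and 175.3 ± 36.2. In both, all 3 Tsc1-null EV lungs lay above all WT EV lungs (as in 6.86% of all genes), with log2 folds of 0.32 ± 0.17 and 0.51 ± 0.17, and neither passed (limma adjusted p = 0.726 and 0.721). Of 13 regulators of alveolar identity 8 were below 0, with a median of -0.16. Lats2, a Hippo kinase, stood at 102.3 ± 12.2 and 75.2 ± 11.3, with all 3 Tsc1-null EV lungs below all WT EV lungs (as in 6.22% of all genes), and Wwtr1, which encodes TAZ, at 168.8 ± 12.03 and 131.3 ± 32.1, with overlapping lungs.

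Water and ion transport genes other than Aqp5 had 8 of 10 log2 folds above 0 and a median of 0.43, which was 0.054 without the 2 libraries that stood apart. Scnn1b, a subunit of the epithelial sodium channel, stood at 117.9, 98.5 and 105.1 in WT EV and at 225.5, 134.4 and 135.7 in Tsc1-null EV lungs. Aqp1, the water channel of capillary endothelium, stood at 647.5 ± 81.1 and 512.1 ± 287.8. Of 7 caveola coat genes 6 were below 0, with a median of -0.21, and Pacsin2, which shapes the caveolar neck, stood at 186.1 ± 1.41 and 151.2 ± 22.8 and was the one of the 7 without overlap (13.1% of all genes). Of 5 measured genes for ligands of RAGE or, with App, the precursor of one, 3 were below 0 with a median of -0.097. Hmgb1, a nuclear protein that binds RAGE when released, stood at 651.7 to 773.4 in all lungs but Tsc1-null EV replicate 1, where it was at 1406. Of 10 relatives of the type 1 genes 5 were below 0. Clic6, a relative of Clic5, stood at 42.6, 23.5 and 44.7 in WT EV and at 114.1, 59.8 and 52.4 in Tsc1-null EV lungs, and its log2 fold of 0.98 was 0.35 without the 2 libraries that stood apart. Limma called 0 genes in these 4 lists, with 2 of the transport genes, 1 of the relatives and 0 of the other 2 lists at an unadjusted p under 0.05 (6.57% of all genes).

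Capillary genes, of cells that also express Cav1 and Emp2, also lay mostly below 0. All 10 general endothelial genes had a log2 fold below 0 with a median of -0.35 (-0.22 and 9 of 10 without the 2 libraries that stood apart). Pecam1, the junction protein with the highest level of the list, stood at 1044, 725.0 and 988.9 in WT EV and at 519.8, 769.4 and 890.3 in Tsc1-null EV lungs. All 8 genes of aerocytes, the capillary cells that face type 1 cells, lay below 0 with a median of -0.42 (-0.33 without the 2 libraries), and 6 of 7 genes of general capillary cells with a median of -0.39 (-0.33 without them). Limma called 0 genes in these lists, with 2 endothelial, 2 aerocyte and 1 general capillary at an unadjusted p under 0.05 (6.57% of all genes). Lower without overlap were 2 of 10 endothelial genes (Egfl7 and Ramp2), 2 of 8 aerocyte genes (Fibin and Tbx2) and 1 of 7 general capillary genes (Sema3c), against 6.22% of all genes. Summed endothelial levels ran from 4111 to 5430 in WT EV and from 2463 to 4894 in Tsc1-null EV lungs, and the summed 8 type 1 genes from 6441 to 9788 and from 5634 to 8563. Relative to the WT EV mean, the mean log2 level of the 8 type 1 genes minus that of the general endothelial genes lay between -0.053 and 0.082 in 5 lungs and at 0.49 in Tsc1-null EV replicate 1. Against the aerocyte genes it was -0.0386, -0.0591 and 0.0976 in WT EV and 0.561, 0.157 and 0.123 in Tsc1-null EV lungs, without overlap. Against the general capillary genes it was 0.0458, -0.197 and 0.151 in WT EV and 0.319, 0.211 and 0.12 in Tsc1-null EV lungs, with overlap. The part of endothelium in the values of Cav1 and Emp2 was not tested.

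Markers of other tissues in the samples also moved between lungs. Heart muscle also expresses Hopx, and its genes were below 0 in 6 of 6 with a median of -1.14 and summed to 411.0 to 670.7 in WT EV and 163.0 to 506.1 in Tsc1-null EV lungs. Fat cells also express Cav1, and their genes were below 0 in 6 of 6 tested with a median of -1.02 and summed to 64.5 to 459.1 and 33.5 to 171.6, and mesothelial genes were below 0 in 5 of 6 with a median of -1.58 and summed to 614.5 to 1159 and 234.8 to 672.8. Without the 2 libraries that stood apart the medians were -0.90 for heart, -1.07 for fat and -0.17 for mesothelial genes, the last with 4 of 6 below 0. On the higher side, airway club cell genes had 5 of 6 above 0 (median 0.43) and ciliated cell genes 6 of 6 (median 0.62), with ciliated sums of 656.1 to 908.2 and 845.3 to 1567. Without the 2 libraries these medians were 0.12 and 0.15, each with 2 of 6 below 0. Of 4 lymphocyte and NK cell genes tested 2 were below 0, with a median of -0.16. Their part in the values of the type 1 genes was not tested.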

How the data were processed

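Lung RNA of 6 mice was sequenced (paired-end, per the labels' protocols). The deposited data are 1 table of TMM-normalized signal, taken as CPM on a linear scale. Bowtie2 2.1.0, RSEM 1.2.15, edgeR and mm10 are named, without roles, in the submitters' processing notes. Annotation, filters and strand: not given in the sources used here. Reads from the rat cells may be among the mouse values and were not separated. Whole reads were recovered from the step of each column (99.999% of values whole, tolerance 0.001).

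The 8 genes, the 17 other lists and the alternatives were chosen with earlier results of these data known. Genes with a mean of at least 1 were kept (14159), log2(value + 1) was taken and the groups compared in R 4.3.3 with limma 3.58.1 (two-sided, with a trend on intensity, Benjamini-Hochberg adjusted p under 0.05). Such folds understate changes of low genes. edgeR 4.0.16 and DESeq2 1.42.0 on recovered reads, 2 pseudocounts (0.5 and 0.1), 2 filters, 2 scalings, no trend, sample weights and each library left out were alternatives. The steps were tested on simulated reads in which no library stood apart. That test does not show how the steps act on the 2 libraries that stood apart here. Libraries of a group differed beyond counting noise (chi-square per degree of freedom 8.78 to 55.2). Named genes are the 8, the 3 of smallest unadjusted p and the highest of each list, the 5 nearest profiles, Malat1 and Rn45s. Sftpd, Cdh5, Yap1 and Nkx2-1 fall outside this rule and were named after their values were seen. Not every gene allowed is printed. Of the 50-base words of each gene, 24.0% for Hopx (with Hopxos) and at most 2.69% for the others occur in other genes of GENCODE M21.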

Additional observations from a re-analysis of the deposited data

How the results depend on the processing

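Of 136 values of the 8 genes under 17 alternatives, 129 kept direction and side of the threshold, 6 turned direction and 1 (Akap5 with sample weights, -0.48) came to pass. With sample weights, which fell mostly on 1 lung of each group, 583 genes were called higher and 467 lower and Aqp5 stood at -0.0084. DESeq2 called 7 higher and 4 lower. Without both libraries that stood apart, an alternative chosen after seeing the data, 12 genes were called higher and 13 lower, none of them among the 8. With 1 library left out, 0 to 1 genes were called on either side, and the log2 folds ran from -0.45 to 0.079 for Ager, -0.16 to 0.22 for Aqp5, -0.53 to -0.069 for Cav1, -0.57 to -0.0047 for Clic5, -0.50 to -0.084 for Rtkn2, -0.41 to -0.16 for Akap5, -0.32 to -0.010 for Emp2 and -0.31 to -0.081 for Hopx. Pseudocounts, filters, scalings, edgeR and no trend turned no direction among the 8. The cause of these changes was not tested. With 3 mice a group, the intervals of the 8 genes span 0 and limit what can be said of small differences. No paired analysis was possible because the labels give the samples separate numbers that are not shared between the groups.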

Other observations

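The ratio of Emp2 to Ager within a lung separated the 2 libraries that stood apart from the rest. It was 0.732 in WT EV replicate 2 and 0.797 in Tsc1-null EV replicate 1, against 0.315 to 0.417 in the other 4 lungs. The ratio of Cav1 to Ager varied less, from 0.436 to 0.587. Cav1 over Cav2 was 3.92, 3.96 and 4.18 in WT EV and 3.32, 4.97 and 4.88 in Tsc1-null EV lungs, so 2 Tsc1-null EV lungs lay above and 1 below all WT EV lungs. Cav1 over Cdh5, the endothelial cadherin, was 2.35, 2.49 and 2.42 in WT EV and 2.9, 2.69 and 1.83 in Tsc1-null EV lungs.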
